A study of Mus musculus with 9 samples.

Results

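Fc receptors and antibody transporters are the proteins through which cells bind, carry and respond to immunoglobulin. Their transcripts were followed in whole lungs of mice given an adenovirus with interleukin-4 (IL-4), its splice variant IL-4d2, or no cytokine. The group holds 9 genes, named for their known function and matched by symbol in the array's annotation, with earlier results of these data known: the IgG receptors Fcgr1, Fcgr2b, Fcgr3 and Fcgr4, their shared signalling chain Fcer1g, the IgE receptors Fcer2a and Fcer1a, and the transporters Fcgrt and Pigr. They were read by 16 of the 45101 probe sets and are 9 of 18193 genes with a single symbol. Of these, 8 genes with 13 probe sets passed the filter on low signals, which kept 11984 genes, and Fcer1a did not.

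All animals were female C57BL/6 mice, 14 weeks old, and all received a replication-deficient adenovirus into the trachea 14 days before the lungs were taken. The AdV-NULL virus, called control virus here, carried no cytokine gene. The AdV-IL4 virus encoded IL-4 and the AdV-IL4d2 virus encoded IL-4d2. There were 3 mice per group, each with its own array, and no untreated lungs were analysed here, so every difference is between mice that all received virus. Whole lung mixes epithelium, vessels, resident macrophages and infiltrating leukocytes, and in such RNA a change in the number of cells of a type and a change in RNA per cell cannot be told apart.

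IgG receptors of leukocytes come in activating and inhibitory forms. The activating receptors Fcgr1, Fcgr3 and Fcgr4 have no signalling motif of their own and pair with the common γ-chain encoded by Fcer1g, whose phosphorylated tyrosine motif recruits the kinase Syk. The inhibitory receptor Fcgr2b carries its own tyrosine motif, which recruits the phosphatase SHIP-1 (Inpp5d) and dampens signals from activating receptors and from the B cell receptor. IgE is bound with high affinity by the receptor whose α-chain is Fcer1a, on mast cells and basophils, and with low affinity by CD23 (Fcer2a), on B cells. The neonatal Fc receptor (Fcgrt, paired with β2-microglobulin) protects IgG from breakdown and carries it across cell layers, and the polymeric immunoglobulin receptor (Pigr) carries dimeric IgA and pentameric IgM across mucosal epithelium.

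Values are array signals on a linear scale, given for mice 1, 2 and 3 of each group in that order, and errors after signals are SDs (n = 3). Differences are on the log2(signal + 16) scale with the standard error of a limma fit over all 9 arrays, and each p-value is adjusted (Benjamini-Hochberg) over all tested probe sets of its comparison, with 0.05 as the threshold. Signals of different probe sets were not compared with each other, since each probe set has its own brightness. The Il4 probe set read 43.1, 15.8 and 71.6 with control virus, 379, 301 and 335 with the IL-4 virus and 1172, 944 and 499 with the IL-4d2 virus. The groups thus did not overlap, and both cytokine groups lay above control virus. Whether this probe set tells IL-4 from IL-4d2 transcript was not tested. The part of the unequal Il4 signal in differences between the cytokine viruses was not tested either. Array medians lay between 156 and 171. The 3'/5' signal ratio of Gapdh, a sign of RNA degradation, was 1.28 ± 0.284 with control virus, 1.71 ± 0.143 with IL-4 and 1.46 ± 0.112 with IL-4d2. A mean log2 signal was also taken over 12 striated muscle genes. In the same order it ran from 9.55 to 12.1, from 7.11 to 8.84 and from 8.46 to 9.77. Neither the part of muscle nor that of RNA quality in the results was tested. The only related fit was that without the control and IL-4 arrays at the ends of the muscle range.

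With the IL-4 virus, 2 of the 8 tested genes rose against control virus, the inhibitory receptor Fcgr2b and the activating receptor Fcgr3, and 0 fell. Over all tested genes, limma called 13% in this comparison, 6.34% higher and 6.63% lower. By probe set, 5 of the 13 tested were higher, 4 of them for Fcgr2b, beside 5.6% of all tested probe sets. The median log2 difference was 0.60 over the 8 genes and -0.02 over all genes, and 6 of the 8 had an unadjusted p under 0.05. The share of all genes under that mark was not taken, so counts of unadjusted p here and below have nothing beside them. In 4 of the 8 genes the IL-4 and control lungs did not overlap (3 above, 1 below), beside 31.9% of all tested genes. With the IL-4d2 virus limma called 0 of the 8 genes, against 1.26% of all genes (0.859% higher and 0.401% lower), and 4 had an unadjusted p under 0.05. The median was 0.26, against -0.00112 over all genes, and groups did not overlap in 2 of the 8, beside 22.6% of all genes. Between both cytokine viruses 1 of the 8, Fcgr2b, was higher with IL-4, where limma called 2.24% of all genes, 1.18% higher and 1.05% lower, and 2 had an unadjusted p under 0.05. Groups did not overlap in 3 of the 8, beside 24% of all genes, and 3 of the 13 probe sets were higher, all for Fcgr2b, beside 0.911% of all. The comparisons with control virus share the control arrays and are not independent of each other. Directions are relative to the scaling of the arrays: with arrays scaled to spiked-in hybridisation or poly-A control transcripts, the median of all probe sets in the IL-4 comparison moved by -0.43 or -0.77, and 1335 higher and 1211 lower probe sets became 295 and 7156 or 152 and 17971. Fcgr2b was called higher with IL-4 under both scalings (at least 0.66), and Fcgr3 under the first but not the second (0.32, adjusted p = 0.218).

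**Figure D1:**
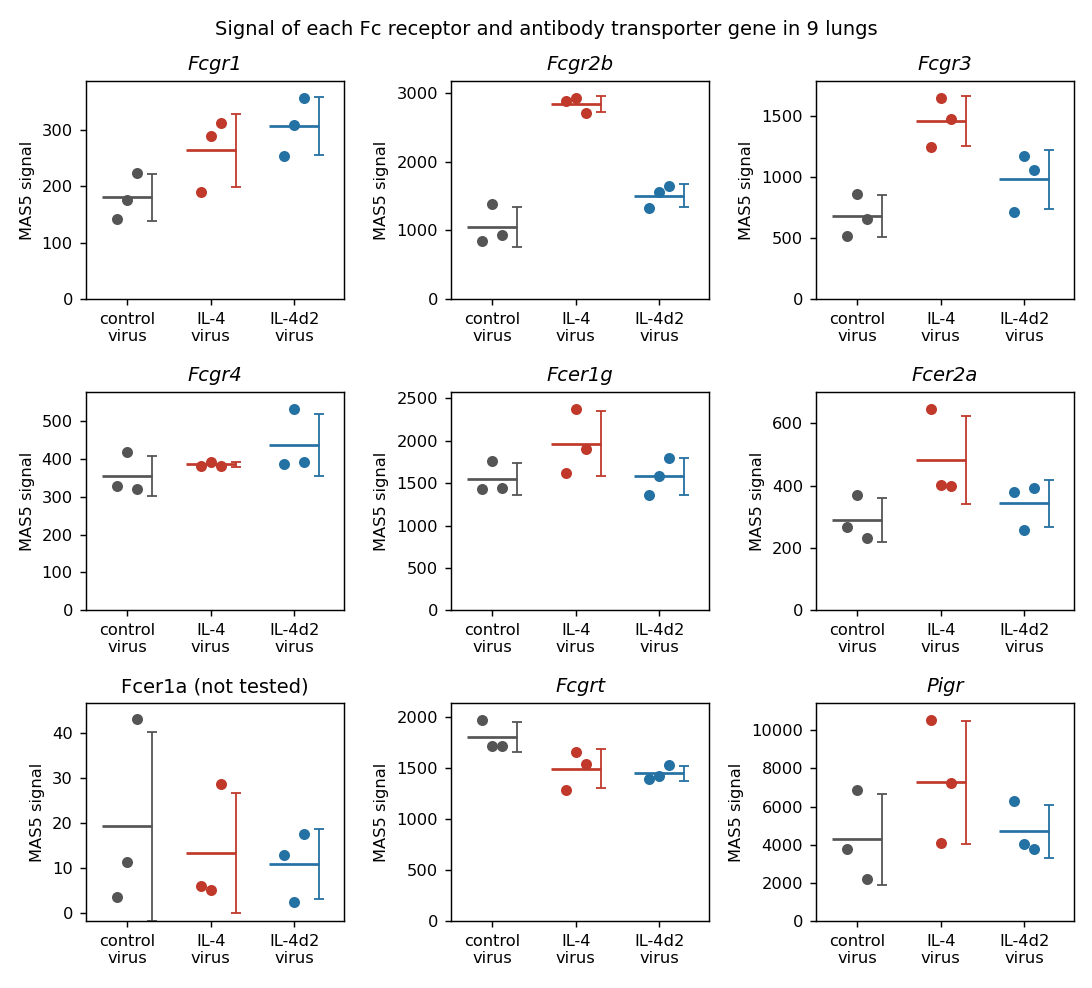
Array signal (linear scale, y axis) of the probe set that stands for each of the 9 genes in the 3 virus groups. Points are single lungs, horizontal lines are group means and bars are SDs. Fcgr2b and Fcgr3 have all 3 IL-4 lungs above every other lung, Fcgrt has all 3 control lungs above every cytokine lung, and Fcer1a reads at most 43.0.

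Fcgr2b was the member with the largest difference. Its brightest probe set, 1435477_s_at, read 843, 1385 and 930 with control virus, 2888, 2927 and 2707 with IL-4, and 1320, 1553 and 1645 with IL-4d2. The 3 IL-4 lungs were close together and lay far above all others, whereas the IL-4d2 lungs overlapped control mouse 2. The mean rose from 1053 ± 291 to 2840 ± 118 with IL-4, a 2.73-fold change (log2 difference 1.45 ± 0.16, adjusted p = 0.000198). With IL-4d2 it was 1506 ± 168, a ratio of 1.45 to control that did not pass (log2 difference 0.54 ± 0.16, 95% interval 0.20 to 0.88, adjusted p = 0.129). IL-4 exceeded IL-4d2 1.88-fold (log2 difference 0.91 ± 0.16, adjusted p = 0.0129). This difference between the cytokine viruses changed sign with arrays scaled to the poly-A controls (-0.16, adjusted p = 0.529). It lost its call with arrays scaled to the hybridisation controls (0.38, adjusted p = 0.124), without the variance trend (adjusted p = 0.0593) and without IL-4d2 mouse 1 (0.82, adjusted p = 0.0599), and without control mouse 2 the IL-4d2 difference to control passed (0.75, adjusted p = 0.00652).

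The other 3 tested Fcgr2b probe sets gave the same direction for IL-4 and differed in size. Probe set 1435476_a_at read 1140, 1287 and 1040 with control virus, 2164, 2235 and 1989 with IL-4, and 1168, 1500 and 1354 with IL-4d2. Probe set 1455332_x_at read 515, 787 and 496, then 1566, 1271 and 1042, then 608, 1041 and 1008, and 1451941_a_at read 319, 334 and 359, then 549, 671 and 664, then 243, 421 and 307. In each of them the IL-4 lungs lay wholly above the control lungs. Their log2 differences of IL-4 to control were 0.88 (adjusted p = 0.000725), 1.10 (adjusted p = 0.00999) and 0.86 (adjusted p = 0.00953), so all 4 tested Fcgr2b probe sets passed. The values for IL-4d2 against control were 0.21, 0.54 and -0.09, with no call and with both signs. IL-4 exceeded IL-4d2 by 0.67 (adjusted p = 0.0123) and 0.95 (adjusted p = 0.0195) at the first and last of these, while 1455332_x_at, with 0.56 (adjusted p = 0.240), did not pass. Over the 9 arrays the 4 probe sets correlated with Pearson's r of 0.71 to 0.96. A further probe set, 1447622_at, read 1.10 to 4.88 and was not tested. Fcgr2b and Fcgr3 have closely similar extracellular parts, and cross-reaction of their probes was not tested, since probe sequences were not used here.

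**Figure D2:**
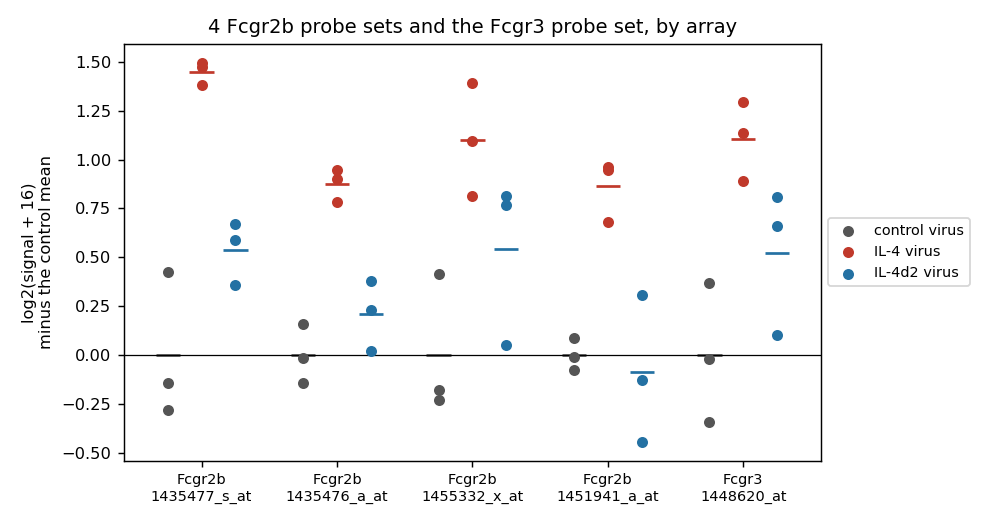
Log2(signal + 16) minus the mean of the control lungs (y axis) for the 4 tested Fcgr2b probe sets and the Fcgr3 probe set (x axis). Points are single lungs and lines group means; in all 5 the IL-4 lungs lie above the control lungs, while the IL-4d2 means run from -0.09 to 0.54.

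Fcgr3, the activating low-affinity receptor, gave a smaller difference of the same sign. It read 520, 862 and 653 with control virus, 1244, 1651 and 1478 with IL-4, and 714, 1175 and 1057 with IL-4d2. All IL-4 lungs lay above all others, and IL-4d2 mouse 1 lay within the control range. The mean rose 2.15-fold with IL-4, from 678 ± 173 to 1457 ± 204 (log2 difference 1.11 ± 0.20, adjusted p = 0.00540). With IL-4d2 it was 982 ± 240, a ratio of 1.44 to control (log2 difference 0.52 ± 0.20, 95% interval 0.08 to 0.96, adjusted p = 0.254). IL-4 and IL-4d2 lungs did not overlap, but their difference of 0.58 ± 0.20 (95% interval 0.14 to 1.02) did not pass (adjusted p = 0.173). With control mouse 1 and IL-4 mouse 2 both left out, the IL-4 difference was 0.84 (adjusted p = 0.0545).

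Fcgr4, an activating receptor of monocytes, macrophages and neutrophils whose gene lies between Fcgr2b and Fcgr3, did not pass in any comparison. It read 328, 418 and 321 with control virus, 382, 393 and 382 with IL-4, and 388, 533 and 391 with IL-4d2. The IL-4 lungs were close together and inside the control range, and the highest value belonged to an IL-4d2 lung. Group means were 356 ± 53.9, 386 ± 6.63 and 437 ± 82.7. The log2 difference was 0.12 with IL-4 (95% interval -0.21 to 0.46, adjusted p = 0.664) and 0.28 with IL-4d2 (95% interval -0.05 to 0.61, adjusted p = 0.437). These intervals do not show that Fcgr4 stayed level, but the one for IL-4 ends below the estimates for Fcgr2b and Fcgr3.

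Fcgr1, the high-affinity IgG receptor, did not pass in any comparison, and its 2 probe sets differed in which cytokine group was highest. Probe set 1417876_at read 142, 176 and 224 with control virus, 190, 289 and 312 with IL-4, and 254, 309 and 357 with IL-4d2. There the IL-4d2 lungs had the highest mean and lay wholly above the control lungs, and the IL-4 lungs overlapped both. Means were 181 ± 41.3, 264 ± 65.0 and 306 ± 51.7, and neither difference to control passed: 0.50 ± 0.22 with IL-4 (adjusted p = 0.182) and 0.72 ± 0.22 with IL-4d2 (95% interval 0.23 to 1.21, adjusted p = 0.154). IL-4 minus IL-4d2 was -0.22 (adjusted p = 0.671). The second probe set, 1436625_at, read 113, 198 and 134, then 251, 196 and 191, then 184, 187 and 251, with differences to control of 0.50 (adjusted p = 0.199) and 0.46 (adjusted p = 0.397). There IL-4 mouse 1 and IL-4d2 mouse 3 read highest, and IL-4 minus IL-4d2 was 0.038 (adjusted p = 0.958). Both Fcgr1 probe sets correlated with r = 0.51 over the 9 arrays, so their order of arrays was only partly shared.

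**Figure D3:**
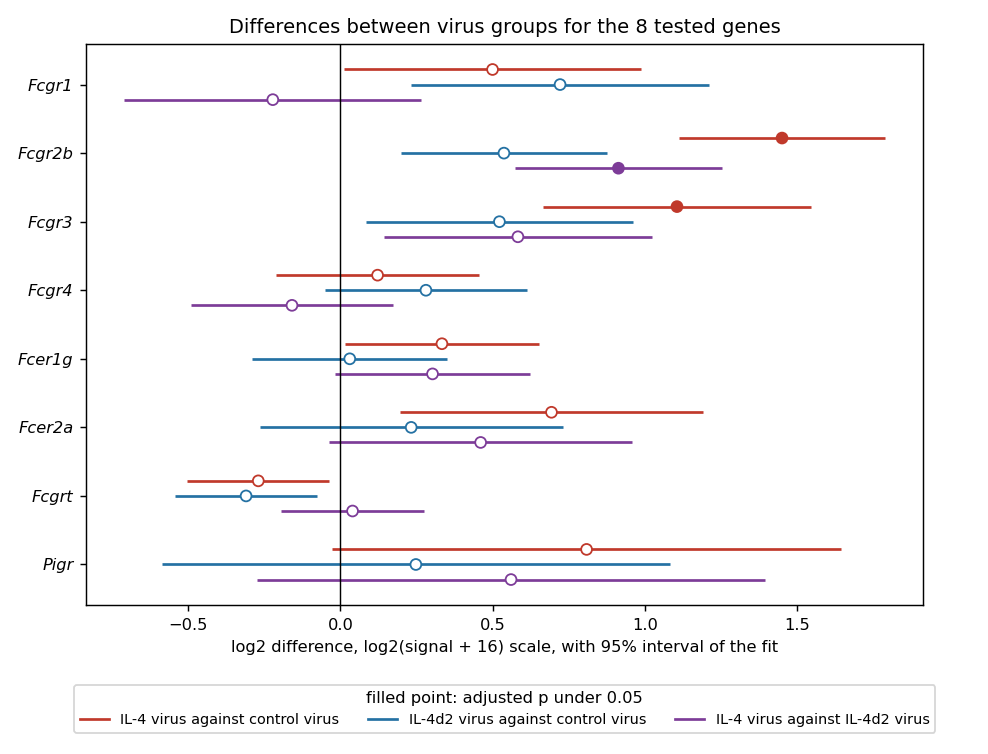
Log2 differences (x axis) of the 8 tested genes in the 3 comparisons, with 95% intervals of the limma fit; filled points passed an adjusted p of 0.05. The filled points are Fcgr2b and Fcgr3 for IL-4 against control virus and Fcgr2b for IL-4 against IL-4d2.

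The promoters of these receptor genes are shown because Fcgr2b, Fcgr4 and Fcgr3 follow each other on chromosome 1 with 0 protein-coding genes between them, although Fcgr2b and Fcgr3 passed the test and Fcgr4 did not. Each sequence is the 250 bases before the gene's start on the gene's own strand, 5′ to 3′, from RefSeq on GRCm38.p6, where all 9 genes had a window. Capitals mark matches, on either strand, to 2 motifs: TTCNNNNGAA, the element read by STAT6 downstream of the IL-4 receptor, and GAGGAA, the PU box of the myeloid factor PU.1, which reads TTCCTC on the other strand. Matches of different motifs may overlap. Among 32851 windows of the same length, 5.85% and 23.3% hold them. The windows of Fcgr2b (chr1:170976072-170976321, minus strand), Fcgr4 (chr1:171018676-171018925, plus strand), Fcgr3 (chr1:171059404-171059653, minus strand) and Fcgr1 (chr3:96293970-96294219, minus strand) are these.
Fcgr2b: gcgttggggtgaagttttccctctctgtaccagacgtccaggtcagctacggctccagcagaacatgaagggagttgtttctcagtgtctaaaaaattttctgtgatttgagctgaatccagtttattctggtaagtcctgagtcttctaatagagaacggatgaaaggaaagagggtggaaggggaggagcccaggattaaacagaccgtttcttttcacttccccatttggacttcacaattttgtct
Fcgr4: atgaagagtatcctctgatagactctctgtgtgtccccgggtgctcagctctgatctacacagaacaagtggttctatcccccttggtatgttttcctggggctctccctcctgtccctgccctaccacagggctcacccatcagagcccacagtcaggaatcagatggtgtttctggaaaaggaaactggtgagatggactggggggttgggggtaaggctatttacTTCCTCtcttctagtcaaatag
Fcgr3: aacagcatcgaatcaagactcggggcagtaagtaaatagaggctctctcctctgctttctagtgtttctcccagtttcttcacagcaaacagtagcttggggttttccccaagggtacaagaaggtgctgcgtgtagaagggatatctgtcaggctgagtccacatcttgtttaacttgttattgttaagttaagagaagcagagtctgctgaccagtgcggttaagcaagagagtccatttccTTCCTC
Fcgr1: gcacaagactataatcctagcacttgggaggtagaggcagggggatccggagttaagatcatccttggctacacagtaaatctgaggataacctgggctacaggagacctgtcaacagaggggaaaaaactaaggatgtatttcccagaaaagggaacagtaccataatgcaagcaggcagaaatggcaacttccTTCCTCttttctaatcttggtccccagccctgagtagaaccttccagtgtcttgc
The PU box letters stand at bases 22 to 17 before the start of Fcgr4, at 6 to 1 before that of Fcgr3 and at 55 to 50 before that of Fcgr1. A second RefSeq window of Fcgr3, not printed, holds them at bases 15 to 10 before its start. Among the other members only Fcer1a holds them, at bases 216 to 211. The Fcgr2b window holds neither motif, which says only that these letters are not in this stretch. None of the 4 windows holds the STAT6 element in the spacing given above. Other spacings between TTC and GAA were not searched for. A match is a description of the sequence and not a site of binding.

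Fcer1g, the γ-chain that the activating IgG receptors and the IgE receptor need for signalling, did not pass. It read 1429, 1763 and 1443 with control virus, 1619, 2377 and 1904 with IL-4, and 1361, 1583 and 1802 with IL-4d2. The IL-4 lungs reached higher values, and all 3 groups overlapped. Means were 1545 ± 189, 1967 ± 383 and 1582 ± 221. The log2 difference was 0.33 with IL-4 (95% interval 0.01 to 0.65, adjusted p = 0.174), 0.03 with IL-4d2 (95% interval -0.29 to 0.35, adjusted p = 0.952) and 0.30 for IL-4 minus IL-4d2 (95% interval -0.02 to 0.62, adjusted p = 0.329).

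The change of the inhibitory receptor relative to its activating partners was taken as a log2 ratio on each array, with 12 comparisons over 4 pairs of genes. The pairs were chosen with the difference of Fcgr2b already known. The ratio of Fcgr2b to Fcer1g was higher by 1.12 with IL-4 and by 0.51 with IL-4d2 than with control virus, and by 0.61 with IL-4 than with IL-4d2. The ratio to Fcgr4 was higher with IL-4 by 1.33 against control and by 1.07 against IL-4d2, and that to Fcgr1 by 0.95 and 1.14. For each of these 7 values the exact two-sided permutation p was 0.1, the smallest that 3 against 3 arrays allow, and 0.15 after Benjamini-Hochberg adjustment, so no ratio could reach 0.05. The ratio of Fcgr2b to Fcgr3 was higher by 0.35 with IL-4 (exact p = 0.1, adjusted p = 0.15) and by 0.01 with IL-4d2 (exact p = 1) than with control virus, and by 0.33 with IL-4 than with IL-4d2 (exact p = 0.3). The remaining changes with IL-4d2 against control virus were 0.26 for the ratio to Fcgr4 (exact p = 0.2) and -0.18 for that to Fcgr1 (exact p = 0.7).

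Fcer2a, the low-affinity IgE receptor CD23, read 268, 369 and 233 with control virus, 646, 403 and 400 with IL-4, and 380, 257 and 393 with IL-4d2. IL-4 mouse 1 was far above the rest, and all IL-4 lungs lay above all others, the remaining IL-4 lungs by a small margin. Means were 290 ± 70.7, 483 ± 142 and 343 ± 75.4. The log2 difference of 0.69 ± 0.23 with IL-4 did not pass (95% interval 0.20 to 1.19, adjusted p = 0.0752), and it passed without control mouse 2 (0.87, adjusted p = 0.0456). With IL-4d2 it was 0.23 (95% interval -0.27 to 0.73, adjusted p = 0.706), and IL-4 minus IL-4d2 was 0.46 (95% interval -0.04 to 0.96, adjusted p = 0.341). A further Fcer2a probe set, 1451713_a_at, read 4.16 to 40.2 and was not tested. The STAT6 element, held by 5.85% of all windows, was matched among the members only in Fcer2a, which had the most windows. The match lay in 1 of its 3 RefSeq windows (chr8:3690862-3691111, minus strand, GRCm38.p6), at bases 168 to 159 before that start, in capitals in the following sequence.
Fcer2a: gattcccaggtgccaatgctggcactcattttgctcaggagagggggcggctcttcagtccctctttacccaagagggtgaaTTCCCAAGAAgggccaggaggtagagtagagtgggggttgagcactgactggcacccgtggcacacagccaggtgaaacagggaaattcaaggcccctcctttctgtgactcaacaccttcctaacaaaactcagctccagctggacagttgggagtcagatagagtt

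Fcer1a, the α-chain of the high-affinity IgE receptor, was below the median of its array on all 9 arrays and had no test. It read 3.39, 11.2 and 43.0 with control virus, 6.01, 4.96 and 28.6 with IL-4, and 12.8, 2.38 and 17.5 with IL-4d2. Values spread widely within each group and the groups overlapped throughout. In a fit without the filter the log2 differences were -0.20 with IL-4 (95% interval -1.19 to 0.79, adjusted p = 0.885) and -0.27 with IL-4d2 (adjusted p = 0.900). Of 12 mast cell and basophil markers with a probe set, 9 were also below the median on every array. Of the 3 tested, 0 rose and 1 fell with IL-4, beside 6.34% and 6.63% of all genes. The 1 was the histidine decarboxylase Hdc (log2 difference -0.46, adjusted p = 0.0173). Hdc was also lower with IL-4 than with IL-4d2 (-0.62, adjusted p = 0.0124), where limma called 1.05% of all genes lower. The arrays thus gave little measure of this receptor or of the cells that carry it.

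Fcgrt, the heavy chain of the neonatal Fc receptor, was the only tested member with lower means in both cytokine groups. It read 1968, 1717 and 1711 with control virus, 1285, 1658 and 1541 with IL-4, and 1394, 1417 and 1527 with IL-4d2. All 6 cytokine lungs lay below all 3 control lungs. Means were 1799 ± 147, 1495 ± 191 and 1446 ± 71.0. Neither difference passed, at -0.27 ± 0.11 with IL-4 (95% interval -0.50 to -0.04, adjusted p = 0.135) and -0.31 ± 0.11 with IL-4d2 (95% interval -0.54 to -0.08, adjusted p = 0.201). IL-4 minus IL-4d2 was 0.04 (95% interval -0.19 to 0.27, adjusted p = 0.892). Of all tested genes, 17% had IL-4 lungs wholly below the control lungs and 11.3% had IL-4d2 lungs wholly below them. Each separation alone was thus common, and the share of genes with both was not counted. B2m, the light chain of the same receptor and of class I histocompatibility molecules, had a difference of the other sign: it rose 1.44-fold with IL-4, from 26380 ± 3395 to 37851 ± 1025 (adjusted p = 0.00906), but was lower by a log2 difference of -0.27 with arrays scaled to the poly-A controls, and was 32366 ± 3324 with IL-4d2 (adjusted p = 0.212). Without control mouse 1 and IL-4 mouse 2, the B2m difference was 0.44 (adjusted p = 0.0799).

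Pigr had the widest spread of the tested members. It read 3799, 6847 and 2195 with control virus, 10517, 4075 and 7207 with IL-4, and 6276, 4020 and 3803 with IL-4d2. The groups overlapped throughout, with the highest lung in the IL-4 group and the lowest in the control group. Means were 4280 ± 2363, 7267 ± 3222 and 4700 ± 1370, which are coefficients of variation of 55.2%, 44.3% and 29.1%. The log2 difference was 0.81 ± 0.38 with IL-4 (95% interval -0.03 to 1.64, adjusted p = 0.207), 0.25 with IL-4d2 (95% interval -0.59 to 1.08, adjusted p = 0.827) and 0.56 between both (95% interval -0.27 to 1.40, adjusted p = 0.50). The second Pigr probe set, 1455490_at, followed it with r = 0.99 and gave 0.89, 0.30 and 0.59, so both probe sets saw the same variation between lungs.

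The gene profiles most like each member over the 9 arrays differed between members. For Pigr they were Muc5b, the gel-forming airway mucin (r = 0.95), Tff2, a trefoil peptide secreted with mucus (r = 0.95), and Zfp263 (r = 0.95). With group means taken out these were 0.96, 0.95 and 0.94, so the likeness lay in the spread between mice of a group. Muc5b read 2683, 3460 and 956 with control virus, 7013, 1716 and 4295 with IL-4, and 4379, 2185 and 2503 with IL-4d2. As for Pigr, control mouse 3 was the lowest of its group and IL-4 mouse 2 of its own, and IL-4 mouse 1 was the highest of all.

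**Figure D4:**
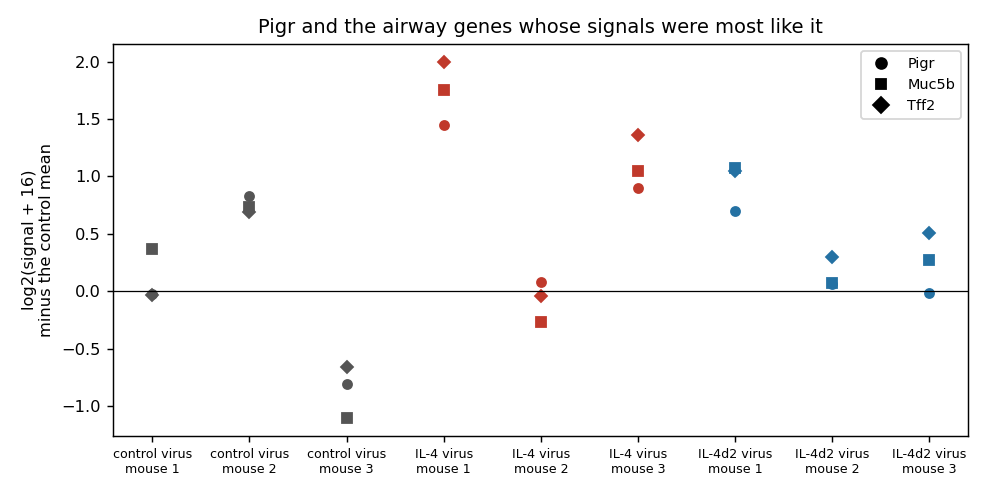
Log2(signal + 16) of Pigr, Muc5b and Tff2 minus the mean of the control lungs (y axis) in each of the 9 lungs (x axis). Control mouse 3 is lowest and IL-4 mouse 1 highest for all 3 genes, and the groups overlap.

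For Fcgr2b the most alike profiles were Wfdc17, a small secreted protein of macrophages (r = 0.99), the chemokine Ccl6 (r = 0.99) and Sh3bgrl3 (r = 0.99). For Fcgr3 they were the TGF-β receptor Tgfbr1 (r = 0.99) and the lysosomal proteases Ctsc (r = 0.98) and Ctss (r = 0.97). Those of Fcgr1 were the histone chaperone Nasp (r = 0.97), the C-type lectin Clec4d (r = 0.96) and Sting1, a sensor of cyclic dinucleotides (r = 0.95). The genes nearest to Fcgr4 were Trp53inp1 (r = 0.94), Hacd3 (r = 0.92) and Rab11fip1 (r = 0.92), and to Fcer1g Haus7 (r = 0.95), Cltc (r = 0.94) and Tm6sf1 (r = 0.94). Fcer2a was most like Slc7a1 (r = 0.94), Xpnpep1 (r = 0.93) and Erdr1 (r = 0.93), and Fcgrt like Zfp365 (r = 0.96), 1110046J04Rik (r = 0.95) and Ccdc62 (r = 0.94). Among the members, Fcgr2b and Fcgr3 correlated most closely (r = 0.94, and 0.80 with group means taken out), followed by Fcer2a with Pigr (0.83 and 0.75) and Fcgr3 with Fcer1g (0.82 and 0.79). These values describe 9 arrays that share 3 group means and were picked as the highest of many, so they carry no p-value.

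Of 28 tested genes of Fc receptor signalling and of receptors that share its kinases and adaptors, 13 were higher with IL-4 than with control virus and 0 were lower, beside 6.34% and 6.63% of all genes, and their median log2 difference was 0.40. With IL-4d2, 1 was higher, beside 0.859% of all genes, and the median was 0.19. The 1 gene was the T cell and mast cell adaptor Lat (1.69-fold, from 304 ± 59.8 to 520 ± 12.8, adjusted p = 0.0318). Lat lost this call with any 1 of 5 arrays left out, control mouse 1 or 3 or any IL-4d2 mouse (0.60 to 0.79, adjusted p = 0.0787 to 0.127). Between the cytokine viruses 2 genes, Itgb2 and Clec7a, were higher with IL-4, beside 1.18% of all genes. Neither of these binds immunoglobulin. Without them, left out after their values were seen, 11 of 26 were higher with IL-4 than with control virus. Between the cytokine viruses limma called 0 of 26, beside 2.24% of all genes, with 6 at an unadjusted p under 0.05. The count of 13 was 6 without control mouse 1 and 8 without control mouse 3, and 7 and 8 without IL-4 mouse 1 or 2. With control mouse 1 and IL-4 mouse 2 both left out it was 6, and with arrays scaled to the hybridisation or poly-A controls it was 2 or 1.

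Syk, the kinase that the γ-chain recruits, rose 1.68-fold with IL-4, from 519 ± 97.0 to 872 ± 53.7 (adjusted p = 0.00386). Inpp5d, the phosphatase that Fcgr2b recruits, rose 1.74-fold, from 725 ± 70.2 to 1284 ± 230 (adjusted p = 0.00420). The protein kinase C genes Prkcd and Prkcb rose 1.59-fold (adjusted p = 0.00473) and 1.66-fold (adjusted p = 0.0101). Genes of both the activating and the inhibitory arm were thus higher, and these 4 calls held with each array left out in turn, but under scaling to the poly-A controls Syk (-0.034), Prkcd (-0.13) and Prkcb (-0.052) changed sign. Inpp5d was 0.014 there (adjusted p = 0.958), and all 4 lost their calls under scaling to the hybridisation controls (0.22 to 0.36). With IL-4d2, Syk (0.37, adjusted p = 0.199), Inpp5d (0.33, adjusted p = 0.296) and Prkcb (0.60, adjusted p = 0.0759) did not pass.

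Clec7a, the β-glucan receptor Dectin-1, which uses Syk without the γ-chain, had the largest difference in the list. It rose 3.31-fold with IL-4, from 2710 ± 1210 to 8504 ± 533 (adjusted p = 0.00120), and was 2919 ± 681 with IL-4d2, so that IL-4 exceeded IL-4d2 by 1.56 on the log2 scale (adjusted p = 0.00802). Itgb2, the β-chain of leukocyte integrins, rose 2.27-fold, from 1436 ± 352 to 3230 ± 180 (adjusted p = 0.000515). It exceeded IL-4d2 by 0.87 (adjusted p = 0.0123), a call that was lost without IL-4d2 mouse 1 (0.83, adjusted p = 0.0534) or mouse 3 (0.81, adjusted p = 0.0681), and turned to -0.20 under scaling to the poly-A controls. Syk, Prkcd and Prkcb were named for their roles after their values were known.

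**Figure D5:**
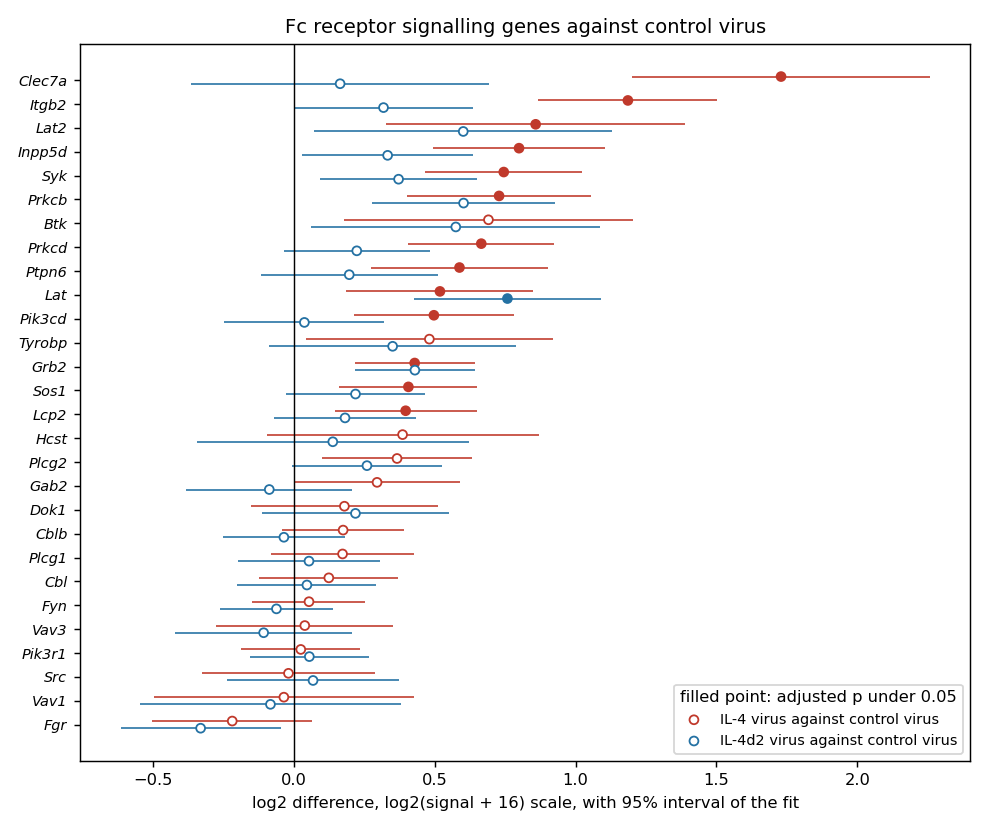
Log2 differences to control virus (x axis) of the 28 tested genes of Fc receptor signalling and of receptors that share it, with 95% intervals of the limma fit, for the IL-4 virus (red) and the IL-4d2 virus (blue). Filled points passed an adjusted p of 0.05: 13 genes with IL-4, led by Clec7a and Itgb2, and Lat with IL-4d2.

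Of 9 other tested receptors that bind immunoglobulin or partner such receptors, 3 rose with IL-4 and 0 fell, beside 6.34% and 6.63% of all genes: B2m, the B cell lectin Cd22 and Lgals3, which binds IgE among other glycoproteins. Cd22 rose 1.96-fold, from 528 ± 215 to 1002 ± 29.5 (adjusted p = 0.00986). With control mouse 1 and IL-4 mouse 2 left out none of these 3 passed, and Cd22 then differed by 0.81 (adjusted p = 0.0619). With arrays scaled to the hybridisation or poly-A controls the count of 3 was 0. Over the 23 alternative settings the lowest Cd22 difference was 0.19. With IL-4d2 limma called 0 of the 9, beside 1.26% of all genes, and 2 had an unadjusted p under 0.05. Lgals3 was 10131 ± 285 with IL-4 and 5582 ± 603 with IL-4d2, a log2 difference of 0.86 (adjusted p = 0.00914) that turned to -0.21 under scaling to the poly-A controls. Its rise over control virus (1.41-fold, adjusted p = 0.0384) lost its call without control mouse 1 or 3, without any IL-4 mouse and without IL-4d2 mouse 2 (0.33 to 0.52, adjusted p = 0.0552 to 0.117).

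The ligands of these receptors were higher with both cytokine viruses. All 5 tested ligand genes, immunoglobulin chains and Jchain, rose with IL-4 and with IL-4d2, beside 6.34% and 0.859% of all genes. Between the cytokine viruses limma called 0 of the 5, beside 2.24% of all genes, and 0 had an unadjusted p under 0.05. This does not show that both viruses had the same effect. Jchain, which joins the polymeric antibodies that Pigr carries, rose 20.2-fold with IL-4 and 22.8-fold with IL-4d2, and Igha, the heavy chain of IgA, 9.95-fold and 14.9-fold. Ighg3, an IgG heavy chain, rose 3.88-fold and 4.93-fold. Pigr, by contrast, passed in neither comparison, with the values above, and the difference between the receptor and its ligands was not tested. The list also names Ighe, the heavy chain of IgE, and further IgG heavy chains, which were not analysed here.

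Markers of cells that carry these receptors moved with some of them. The counts below stand beside 6.34% higher and 6.63% lower of all genes with IL-4, 0.859% and 0.401% with IL-4d2, and 1.18% and 1.05% between the cytokine viruses. Of 17 tested macrophage and monocyte markers, 9 rose and 1 fell with IL-4, 3 rose with IL-4d2, and 3 were higher and 1 lower with IL-4 than with IL-4d2. The marker that fell was Marco, from 397 ± 61.0 to 58.4 ± 33.2 (log2 difference -2.55, adjusted p = 0.000226). Marco was also the lower one against IL-4d2 (-2.34, adjusted p = 0.00196). Signals were also summed over the 18 markers with a probe set. The sum was 58950 to 85502 with control virus, 102092 to 112536 with IL-4 and 66913 to 81527 with IL-4d2. In it the IL-4 lungs stood apart as they did for Fcgr2b and Fcgr3. Bright probe sets weigh most in such a sum, so the fall of Marco hardly shows in it. Much of this sum was Chil3 (14998 ± 5820 with control virus, 38350 ± 2817 with IL-4), which with Mrc1 also stands in the list of genes that IL-4 induces in macrophages. Without these 2 genes, left out after their values were seen, the sums were 45078 to 61807, 64900 to 70284 and 54759 to 61421, so the IL-4 lungs still lay above the others, by a smaller margin. Of 13 B cell markers, relevant to Fcgr2b, Fcer2a and Cd22, 8 rose with IL-4 and 4 with IL-4d2, with sums of 4387 to 5267, 7542 to 9056 and 7082 to 9040. Of 5 neutrophil markers, relevant to Fcgr3 and Fcgr4, 2 fell with IL-4, and limma called 0 of 7 natural killer cell markers with either cytokine virus, also 0 at an unadjusted p under 0.05. Of 8 tested genes that IL-4 is known to induce in macrophages, Chil3 and Mrc1 among them, 6 rose with IL-4, while with IL-4d2 limma called 0 and 1 had an unadjusted p under 0.05. For Pigr, 1 of 14 epithelial markers rose and 1 fell with IL-4, a share near that of all genes, and for Fcgrt, 2 of 10 endothelial markers rose and 2 fell. None of the 7 eosinophil markers was tested. The part of these cells in the receptor differences was not tested.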

How the data were processed

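Lung RNA of 9 mice was hybridised to Affymetrix 3' arrays, 1 per mouse. Per the labels' protocols, 200 ng of total RNA from Trizol extraction was amplified with the 3' IVT Express kit. The authors deposited linear signal intensities of 45101 probe sets. MAS5, GCOS and Affymetrix Expression Console 2.0 are named, without their roles, in the submitters' processing notes, and the 2% trimmed mean of the deposited intensities is 500.002 on each array. Such scaling hides a change shared by most genes. Arrays have no depth, so their number limits the precision.

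The platform annotation gave 34958 probe sets a single symbol. Signals became log2(signal + 16). The 23824 probe sets above their array's median on at least 3 arrays were fitted with limma 3.58.1 in R 4.3.3 (lmFit, eBayes with trend, no covariates, all 9 arrays, 6 residual degrees of freedom), two-sided, after a check on simulated data; 64 control probe sets were left out. The brightest tested probe set stood for a gene. Folds are on the log2(signal + 16) scale and understate changes of dim genes.

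The members and the 13 gene lists were chosen with earlier results of these data known; 19 of 176 list genes matched no probe set. Named genes were every member, up to 4 called genes per list and comparison with the largest difference (the 2 brightest where fewer than 2 were called), and the 3 most correlated genes per tested member; of the list genes, a part is given. Alternatives varied the pseudocount, filter, normalization, variance model, array weights, samples, replicate block, left-out arrays and the averaging of probe sets.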

Additional observations from a re-analysis of the deposited data

Results flagged for a closer look

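Fcgr2b differed between both cytokine viruses by the test of the difference itself, with a log2 difference of IL-4 minus IL-4d2 of 0.91 (adjusted p = 0.0129). Clec7a (1.56, adjusted p = 0.00802), Itgb2 (0.87, adjusted p = 0.0123) and Lgals3 (0.86, adjusted p = 0.00914) differed in the same direction. With arrays scaled to the poly-A controls the sign turned for Fcgr2b (-0.16), Itgb2 (-0.20) and Lgals3 (-0.21), whereas Clec7a kept its sign and its call in all 23 alternative settings (lowest 0.49).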

How the results depend on the processing

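Over 23 alternative settings, 951 of 1053 values of 46 gene differences kept direction and side of the threshold, 59 lost and 13 gained a call, and 30 changed sign. Fcgr2b with IL-4 against control virus was called in all 23 (0.66 to 1.66). Causes were not tested except where fewer arrays or more probe sets entered the fit.

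Scaling to the 18 hybridisation control probe sets gave 7451 called probe sets for IL-4 against control and 11163 for IL-4 against IL-4d2 (main 2546 and 416), with splits of 295 higher to 7156 lower and 89 to 11074, and 2 called members in the latter: Fcgr1 (-0.73, adjusted p = 0.0296) and Fcgr4 (-0.68, adjusted p = 0.0170). Scaling to the 24 poly-A control probe sets gave 18123 (152 to 17971), 519 for IL-4d2 against control (469 to 50; main 314) and 22503 (33 to 22470), with 2 called members for IL-4d2 against control, Fcgr1 (1.0) and Fcgr2b (0.82), and 6 for IL-4 against IL-4d2. The medians of all probe sets moved by -0.43, 0.09 and -0.52 with the first scaling and by -0.77, 0.27 and -1.04 with the second. Fcgrt was called lower with IL-4 than with control virus under both (-0.71 and -1.06). Fcgr2b between the cytokine viruses was 0.38 (adjusted p = 0.124) under the first.

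Signs changed under the first scaling for IL-4 against control in Fcer1g (-0.11) and Fcgr4 (-0.31), and for IL-4 against IL-4d2 in Fcer1g (-0.23), Fcer2a (-0.059) and Fcgrt (-0.49). Under the second they changed against control in B2m (-0.27), Fcer1g (-0.46), Fcer2a (-0.070), Fcgr1 (-0.23), Fcgr4 (-0.64), Lat (-0.24), Lgals3 (-0.30), Prkcb (-0.052), Prkcd (-0.13) and Syk (-0.034), and against IL-4d2 in Fcer1g (-0.76), Fcer2a (-0.57), Fcgr2b (-0.16), Fcgr3 (-0.48), Fcgrt (-1.03), Itgb2 (-0.20), Lgals3 (-0.21) and Pigr (-0.51).

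Leaving out each array in turn gave 1313 to 2210 called probe sets and 2 to 3 members for IL-4 against control, 156 to 417 and 0 to 1 for IL-4d2 against control, and 110 to 446 and 0 to 1 for IL-4 against IL-4d2. For IL-4d2 against control, Fcer1g then ran from -0.067 to 0.13, below 0 without control mouse 1, control mouse 3 or IL-4d2 mouse 3, and Pigr from -0.16, without control mouse 3, to 0.66. Fcgrt for IL-4 against IL-4d2 ran from -0.038, without IL-4 mouse 2, to 0.14. Leaving out control mouse 1 and IL-4 mouse 2 together gave 1068, 200 and 237 called probe sets, 1 called member for IL-4 against control, Fcgr2b, and -0.021 for Fcer1g and -0.038 for Fcgrt in the comparisons just named.

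The count of 13 signalling genes higher with IL-4 was 8 without the filter, without the trend and in a fit of the 2 groups compared. Without the filter IL-4 against IL-4d2 gave 244 called probe sets. Without the trend IL-4d2 against control gave 195, and IL-4 against IL-4d2 gave 165 with 0 members (Fcgr2b adjusted p = 0.0593). Array weights gave 593 for IL-4d2 against control, with 1 member, Fcgr2b (0.60, adjusted p = 0.0491). Whether the mouse numbers pair the arrays could not be settled with so few arrays. Same-numbered arrays correlated at -0.07 to 0.12 after removal of group means, 2 of 9 pairs above 0.1. Of the 9 arrays, 5 correlated best with their own number. With mouse number as a replicate block, 2427, 312 and 384 probe sets were called, with 1 member for IL-4d2 against control, Fcgr3 (0.52, adjusted p = 0.0478), and 2 for IL-4 against IL-4d2, Fcgr2b and Fcgr3 (0.58, adjusted p = 0.0265).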
